A study of Mus musculus with 6 samples.

Results

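The data compared mouse cells carrying a short hairpin RNA against Dazl with cells carrying a control vector, after 9 and after 12 days of differentiation. All 6 arrays of the series entered the comparison: 4 labelled Dazl knockdown, which hold hairpin 1 and hairpin 2 at each day, and 2 labelled control, 1 at each day. The cells were male embryonic stem cells of a mixed C57BL/6 129SV background with an Oct4-GFP transgene, and every vector, the control included, also carried tdTomato. Feeder cells had been depleted on plastic before the cells were replated on gelatin and differentiated, and cells positive for both GFP and tdTomato were then sorted and called primordial germ cells. The gate thus rests on the Oct4 reporter, which pluripotent cells also express. Total RNA was labelled with Cy3 and hybridised to an Agilent whole-genome array, 1 array for each vector and day.

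Dazl encodes a cytoplasmic RNA-binding protein of germ cells. It binds the untranslated regions of germ cell messages and acts on their translation and stability, and it is among the genes that mark the passage of primordial germ cells into a state competent for meiosis. Primordial germ cells keep much of the pluripotency network, and as they enter the gonad they switch on genes of meiosis, of the piRNA pathway, which silences transposons, and of germ granules. The series title names an RNA-interacting protein network and pluripotency in primordial germ cells as its subject. An array measures RNA level only, so an effect of Dazl on translation is outside these data.

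Signals are given on a scale where each array's 75th percentile is 100. Differences are log2 values, knockdown minus control, and a pair is 1 knockdown array against the control array of its day, so the pairs of a day share their control. The 75th percentile of raw intensity was 629 to 745 over the arrays, between 70.3% and 73.3% of probes were well above background, and arrays correlated with each other at r of 0.98 to 0.99 across genes. Hairpin 2 at day 9 stood apart, with an interquartile range of 0.63 in its pair against 0.34 to 0.45 in the other pairs. Some of the results that include it, but not all, are given without it as well. Each vector also kept the same position, 2 for control, 3 for hairpin 1 and 4 for hairpin 2, on its day's slide, which cannot be told apart from the vector. Of the 10 germ cell markers, 9 were well above background on every array and Prdm14 was not among the genes fitted. Their summed signal was 18995 to 25084 in the controls and 9156 to 20905 in the knockdown arrays. Most of it was Stra8, at 14277 to 20571 and 5742 to 17525. In the fit 8 markers were lower, Dazl among them, with Kit at -0.04 and Tfap2c at -0.13, and Nanos3 was higher at 0.17. In bulk RNA, fewer cells of a type and less RNA per cell cannot be told apart.

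Dazl itself was read by a pair of probes. The brighter probe gave signals of 249.6 in the control, 12.1 with hairpin 1 and 20.7 with hairpin 2 at day 9, and 599 in the control, 21.2 with hairpin 1 and 28.0 with hairpin 2 at day 12. Every knockdown array lay far below both controls, and the groups did not overlap at either day. The 4 pairs differed by -4.37 and -3.59 at day 9 and by -4.82 and -4.42 at day 12, for hairpin 1 and hairpin 2 in turn. The fit with day as a term gave -4.30 (SE 0.28, 4 knockdown against 2 control arrays), a 19.7-fold difference, with an adjusted p of 0.0864 in limma over 20220 genes and of 0.0104 with the vector as a replicate block. The other Dazl probe gave a log2 difference of -4.72 (SE 0.17) and passed on its own, with a limma adjusted p of 0.00464 over 30190 probes. Dazl signal remained well above background on every knockdown array. On both probes Dazl signal was higher at day 12 than at day 9 with each of the 3 vectors, and every knockdown value of day 12 lay below the control of day 9.

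Across the array no gene passed the adjusted threshold of 0.05 in the limma fit of 20220 genes, so percent called was 0. At an unadjusted p under 0.05 there were 2012 genes, of which 1034 (5.11%) were higher and 978 (4.84%) were lower in the knockdown, and 1011 would be expected by chance. The fit with a replicate block, in which each vector keeps its own level across both days, called more. There 20 genes (0.0989%) passed, 10 higher and 10 lower, and 16 of them were above background on all 6 arrays. Its p-values leave out any disagreement between the hairpins. Under a plainer rule, 3294 genes (16.3%) were higher and 3443 (17%) lower than the same day's control in all 4 pairs. Only 21 of the 18482 genes above background on every array (0.114%) were at least 2-fold higher in all 4 pairs, and 20 (0.108%) were at least 2-fold lower. Their limma adjusted p ran from 0.0896 to 0.359 for the higher genes and from 0.0864 to 0.294 for the lower. Leaving out an array drops its pairs and asks for 2-fold in the remaining pairs only, so the counts of higher and lower genes could not fall. Without the day 9 control they became 103 and 70, without the day 12 control 48 and 66. Without hairpin 2 at day 9 they were 43 and 27, and without hairpin 2 at day 12 they were 35 and 33.

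Ranked by the smallest of their 4 pair differences, the lowest genes besides Dazl were Ambp, Asb9, Tmem255a, Gsx2 and Radx. Asb9, a SOCS-box protein that serves as the substrate adaptor of a ubiquitin ligase, gave 707 in the control and 142 with each hairpin at day 9, and 717 in the control against 141 and 182 at day 12. Its knockdown values were nearly alike for both hairpins and both days and all lay below both controls. The fit gave -2.24 (SE 0.16, limma adjusted p 0.0864, and 0.044 with the replicate block).
Ambp, the precursor of alpha-1-microglobulin and bikunin made mainly by liver, gave 27.3, 4.56 and 4.68 at day 9 and 93.4, 7.81 and 13.4 at day 12, for control, hairpin 1 and hairpin 2. Its control signal was higher at day 12, while the knockdown arrays stayed low at both days and did not overlap the controls. The fit gave -2.88 (SE 0.27, limma adjusted p 0.096, and 0.044 with the block).
Radx, a single-stranded DNA-binding protein at replication forks, gave 15.4, 5.24 and 4.87 at day 9 and 21.9, 6.88 and 6.27 at day 12. Tmem255a, a membrane protein, gave 13.3, 3.78 and 3.11 at day 9 and 8.09, 2.44 and 2.28 at day 12. In both genes all 4 knockdown arrays lay below both controls. Their limma log2 differences were -1.67 (SE 0.14) and -1.87 (SE 0.15), each with an adjusted p of 0.0896, and of 0.044 with the block. The homeobox genes Gsx2 and Lmx1b, which act in neural patterning, differed by -2.13 and -1.31, and the adrenergic receptor gene Adra2a by -1.45, with no limma adjusted p under 0.05 in either fit. Among dimmer genes, Cyp4f15 was above background on the controls only and was at least 1.96-fold lower. Its limma adjusted p was 0.148, and 0.044 with the block. Dock10 and Myl10, above background on 3 arrays, had limma adjusted p of 0.289 and 0.278, and of 0.044 and 0.0462 with the block. Unnamed transcripts C130021I20 and ENSMUST00000060298 were also lower and CF584628 higher with the block.

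**Figure D1:**
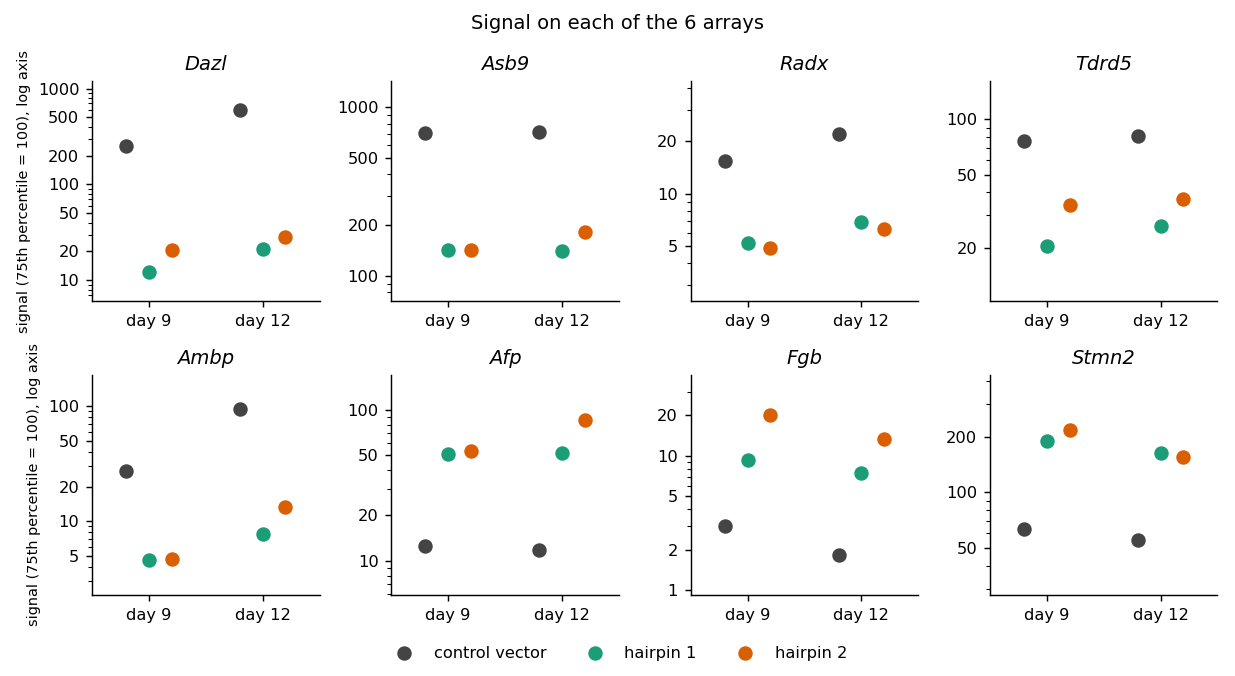
Signal of 8 genes on each of the 6 arrays, with each array's 75th percentile set to 100, on a log axis; columns are days and colours are vectors, 1 point per array and no error bar. For Dazl, Asb9, Radx, Tdrd5 and Ambp both hairpins lie below the control at both days, and for Afp, Fgb and Stmn2 both lie above it.

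The genes that stood highest in the knockdown were of other kinds. Afp, the fetal serum protein of yolk sac and liver, gave 12.6, 51.4 and 53.2 at day 9 and 11.9, 51.6 and 85.3 at day 12, for control, hairpin 1 and hairpin 2. All 4 knockdown arrays were above both controls. The fit gave 2.27 (SE 0.24, limma adjusted p 0.148, and 0.0462 with the block). Fgb, the beta chain of fibrinogen, gave 3.02, 9.34 and 19.99 at day 9 and 1.84, 7.48 and 13.3 at day 12, and Apoa1, the main protein of high-density lipoprotein, gave 1.16, 4.03 and 11.5, then 1.87, 3.83 and 12.5. Both genes were dim, and hairpin 2 was higher than hairpin 1 at each day. Their log2 differences were 2.31 (SE 0.37) and 2.22 (SE 0.60). The limma adjusted p was 0.180 and 0.359, and 0.044 and 0.0462 with the block.
Stmn2, a neuronal microtubule regulator, gave 63.0, 189 and 216 at day 9 and 55.3, 162 and 155 at day 12, a difference of 1.60 (SE 0.14, limma adjusted p 0.0896, and 0.0462 with the block). The hairpins were close together and did not overlap the controls. Its relative Stmn3 differed by 1.21 (SE 0.15). Gngt2, a G protein gamma subunit, differed by 1.54 (SE 0.14, limma adjusted p 0.0896, and 0.0462 with the block) at low signals of 1.38 to 5.03.
Hkdc1, a hexokinase, and Pdyn, the precursor of dynorphin peptides, differed by 1.81 and 1.76. In both genes hairpin 1 lay above hairpin 2 at both days, and both passed only with the block, at limma adjusted p of 0.044 and 0.0462. Pga5, a pepsinogen, gave 18.8, 32.0 and 150.3 at day 9 and 21.1, 36.7 and 206 at day 12. Its difference of 1.96 (SE 0.85, limma adjusted p 0.523, and 0.044 with the block) was carried mostly by hairpin 2.

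**Figure D2:**
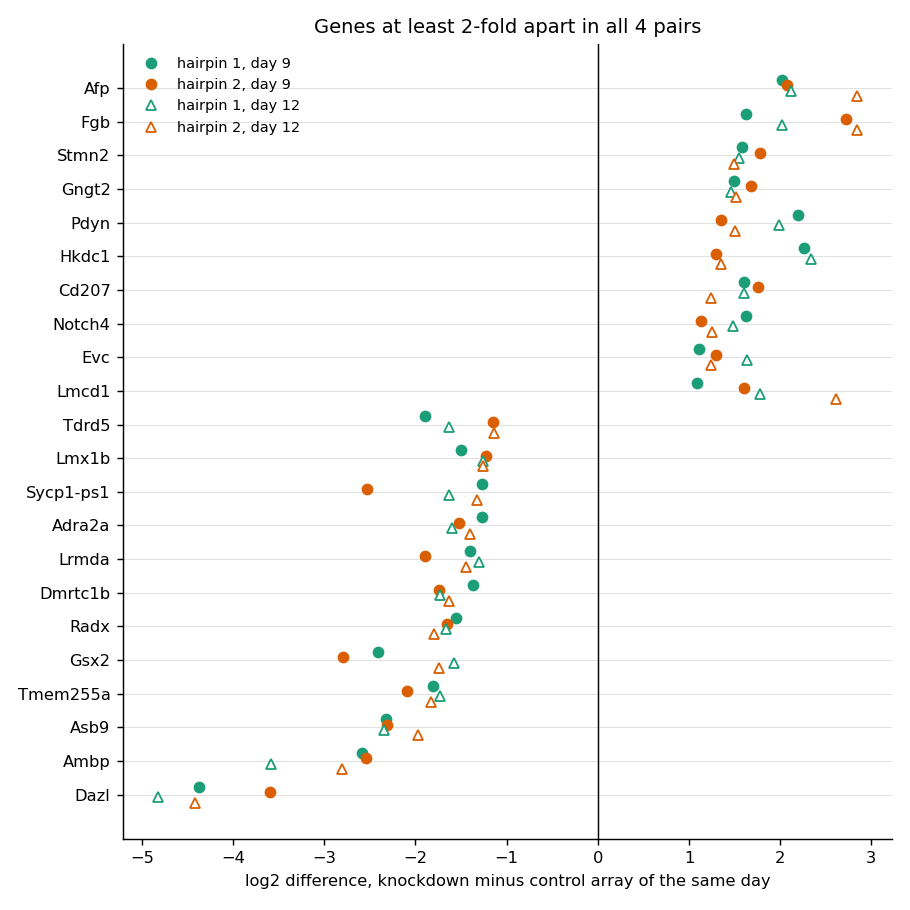
Log2 difference, knockdown minus the same day's control, of 22 genes at least 2-fold apart the same way in all 4 pairs; colours are hairpins and marker shapes are days, 1 point per pair. Dazl lies farthest from 0 at -4.82 to -3.59, and each gene shown has its 4 points on the same side of 0.

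Germ cell genes were lower as a group. Of 79 genes on the 4 germ cell lists, 73 were measured, and 67 of them were lower and 6 higher in the fit, against 50.2% and 49.8% of all genes. The median log2 difference was -0.36, against -0.00 for all genes. In all 4 pairs 38 were lower and 1 higher (52.1% lower, against 17% of all genes). At an unadjusted limma p under 0.05, 24 were lower and 1 higher, against 4.84% and 5.11% of all genes. None passed the limma adjusted threshold in the main fit and only Dazl did with the block. The pair medians were -0.46 and -0.41 at day 9 and -0.29 and -0.20 at day 12, for hairpin 1 and hairpin 2. Without hairpin 2 at day 9, 66 of 73 were lower, and under normexp background correction 63 lay below the median of all genes.

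Promoters of these genes are shown because germ cell genes are known to be held silent in pluripotent cells by a Polycomb complex that binds E-boxes through MAX and MGA and E2F sites through E2F6. Each sequence is the 200 bases before the transcription start in RefSeq, build GRCm38.p6, written 5′ to 3′ on the gene's strand, and capitals mark CACGTG or TCCCGC, searched on both strands with overlaps allowed. Sycp1 lies at chr3:102936101-102936300 on the minus strand, Slc25a31 at chr3:40708671-40708870 on the plus strand and Mael at chr1:166238745-166238944 on the minus strand.
Sycp1: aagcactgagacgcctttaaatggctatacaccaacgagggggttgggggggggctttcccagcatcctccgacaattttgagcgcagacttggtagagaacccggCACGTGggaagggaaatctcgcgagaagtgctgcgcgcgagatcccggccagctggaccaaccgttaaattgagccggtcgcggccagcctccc
Slc25a31: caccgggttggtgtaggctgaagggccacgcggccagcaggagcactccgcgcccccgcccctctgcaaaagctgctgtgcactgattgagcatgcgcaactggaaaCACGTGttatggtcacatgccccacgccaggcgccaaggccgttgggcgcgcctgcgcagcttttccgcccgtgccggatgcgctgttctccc
Mael: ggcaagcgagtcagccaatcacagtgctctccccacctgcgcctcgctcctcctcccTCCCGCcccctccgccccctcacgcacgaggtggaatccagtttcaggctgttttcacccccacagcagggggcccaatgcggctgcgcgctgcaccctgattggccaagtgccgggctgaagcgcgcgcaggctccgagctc
Sycp1 and Slc25a31 each hold 1 CACGTG and Mael holds 1 TCCCGC, while the window searched for Tdrd5 and for Sycp2, both also lower, holds neither. Those windows lay 955 and 117 bases from the annotated start of the gene, against 1 for each of Sycp1, Slc25a31 and Mael. They are thus not placed alike. Of the 62 measured germ cell genes with a promoter in the table, 16 (25.8%) held CACGTG, against 7.09% of the 12815 genes tested with a promoter and 5.27% of all 27025 promoters. TCCCGC was in 20 (32.3%), against 24.5% and 15.1%. Among the 34 with a promoter that were lower in all 4 pairs, 8 (23.5%) held CACGTG and 13 (38.2%) held TCCCGC, so the first share was near that of the germ cell lists as a whole. These matches describe the sequence only and carry no evidence of binding.

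Among genes of meiosis, those of the chromosome axis had the lower median and those of recombination lay nearer to 0, a difference between lists that was not tested. Of 17 measured genes of the synaptonemal complex, which zips paired chromosomes, and of meiotic cohesin, 15 were lower and 2 higher, 11 were lower in all 4 pairs, against 17% of all genes, and the median was -0.39. Sycp1, its transverse filament, gave 26.6, 10.3 and 5.61 at day 9 and 49.7, 26.1 and 25.6 at day 12, for control, hairpin 1 and hairpin 2. Both hairpins lay below the control of the same day, but the day 12 knockdown values nearly reached the day 9 control. The fit gave -1.37 (SE 0.31, limma adjusted p 0.289). A probe of its pseudogene Sycp1-ps1, which can share signal with Sycp1, gave -1.69. Sycp2, of the lateral element, gave -1.04 (SE 0.19), Sycp3 gave -0.40, and Tex12, of the central element, gave -0.65. Rec8, the meiotic cohesin subunit, was bright at 2209.9, 1444 and 1166 at day 9 and 2257, 1489.6 and 1174 at day 12, a difference of -0.77 (SE 0.17). Hairpin 2 was lower than hairpin 1 at both days, and neither overlapped the controls.
Of 19 measured genes of meiotic recombination, 17 were lower, with a median of -0.18 and 6 lower in all 4 pairs, against 17% of all genes. Dmc1, the meiotic recombinase, was nearly flat at 129.6 to 142 over all 6 arrays, with a log2 difference of -0.05 (SE 0.13). Ccnb1ip1 and Hfm1, both needed for crossovers, gave -0.44 and -0.42. Tex11, an X-linked crossover gene, gave -0.98 but 0.04 under normexp background correction, where the median of all genes was 0.12.

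The piRNA pathway and germ granule genes were also lower as a group. Of 20 measured, 19 were lower and 1 higher, and 12 were lower in all 4 pairs, against 17% of all genes. The higher member, the dim piRNA methyltransferase gene Henmt1 at 0.52, was higher in all 4 pairs with an unadjusted limma p of 0.0099. The pair medians were -0.56 and -0.86 at day 9 against -0.30 and -0.30 at day 12. Tdrd5, a tudor protein needed for piRNA production, gave 76.0, 20.4 and 34.3 at day 9 and 80.9, 26.1 and 36.8 at day 12. Every knockdown array lay below both controls, with hairpin 1 below hairpin 2 at each day. The fit gave -1.45 (SE 0.26, limma adjusted p 0.212, and 0.0593 with the block). Mael, of the nuage, gave 498, 227 and 239 at day 9 and 843, 494 and 717 at day 12, a difference of -0.80 (SE 0.22). Its day 12 value with hairpin 2 was close to that day's control. Asz1 and Rnf17 gave -0.88 and -0.76, Tdrd1 gave -0.64 and Tex19.1 gave -0.41.
Ddx4, the RNA helicase that defines germ granules, did not keep a direction: 609, 468 and 287 at day 9 and 511, 591 and 501 at day 12, with a difference of -0.32 (SE 0.28).

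Other germ cell genes followed the same pattern, with 17 of 18 measured lower and a median of -0.49, though this list holds Dazl itself. Slc25a31, the germline ADP/ATP carrier, gave 41.5, 13.8 and 12.3 at day 9 and 118, 53.9 and 64.6 at day 12. Both hairpins were below the same day's control, and the day 12 knockdown values were above the day 9 control. The fit gave -1.34 (SE 0.20, limma adjusted p 0.178). Stra8, the retinoic acid target that starts the meiotic programme, was among the brightest genes at 14277, 8765 and 5742 at day 9 and 20571, 17525 and 12291 at day 12. It was lower with each hairpin at each day, by -0.75 (SE 0.26) in the fit, more with hairpin 2 than with hairpin 1. Sohlh2, a transcription factor of differentiating germ cells, gave -0.83 (SE 0.22).

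Messages listed as bound by DAZL were lower as a group, though most by small amounts. Of 17 measured, Dazl among them, 15 were lower and 2 higher, with a median of -0.24. The list also holds Sycp1 and Tdrd1, given above with the germ cell genes, so it is not separate from those lists. In all 4 pairs 8 were lower and 1 higher, against 17% and 16.3% of all genes, and 6 were lower at an unadjusted p under 0.05, against 4.84%. Under normexp 16 of 17 lay below the median of all genes, with a median of -0.37 relative to it. Without hairpin 2 at day 9, 12 were lower, 5 were higher and the median was -0.12. Suz12, a core subunit of Polycomb repressive complex 2, gave 1138, 771 and 683 at day 9 and 993, 670.3 and 800 at day 12, a difference of -0.54 (SE 0.15, limma adjusted p 0.37). All knockdown arrays were below both controls. Sox2 gave -0.10 (SE 0.18) with its pairs on both sides of 0, and Nanog gave 0.38 (SE 0.30), with its large value in hairpin 2 at day 9 only. Among 20 RNA-binding proteins of germ cells, a list that also holds Dazl, 16 were lower, with a median of -0.12.

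Genes of the X chromosome filled a large share of the genes that stood low. The X chromosome carried 6 of the 20 genes at least 2-fold lower in all 4 pairs (30%) and none of the 21 higher, while it carried 2.8% of the 18482 genes above background on every array. These 6 were Asb9, Tmem255a, Radx, Dmrtc1b, Nxf2 and the predicted gene Gm5128. Of the 560 X-linked genes fitted, 20 were at least 2-fold lower and 1 was higher, against 192 lower and 140 higher among all genes. The X chromosome thus gave 10.4% of the lower and 0.714% of the higher genes while holding 3.47% of genes with a known chromosome, and 7 of the 20 are on the cancer-testis, Rhox or germ cell lists. The median over the chromosome was only -0.03, so most X-linked genes stood near the array as a whole. Promoters of 3 of the 6 X-linked genes at least 2-fold lower in all 4 pairs are shown as above. They were not picked by rank. Tmem255a and Dmrtc1b, not shown, stood lower than Nxf2 by the smallest of their pair differences. Radx lies at chrX:139480167-139480366 on the plus strand, Nxf2 at chrX:134964755-134964954 on the minus strand and Asb9 at chrX:164497703-164497902 on the plus strand.
Radx: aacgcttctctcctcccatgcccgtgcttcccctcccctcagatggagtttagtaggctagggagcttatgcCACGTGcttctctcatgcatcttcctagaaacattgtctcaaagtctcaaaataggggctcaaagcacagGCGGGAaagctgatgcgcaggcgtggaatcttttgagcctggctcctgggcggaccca
Nxf2: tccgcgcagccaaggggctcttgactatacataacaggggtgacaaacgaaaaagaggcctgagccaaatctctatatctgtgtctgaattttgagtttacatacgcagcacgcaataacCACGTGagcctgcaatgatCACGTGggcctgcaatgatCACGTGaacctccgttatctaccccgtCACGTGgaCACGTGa
Asb9: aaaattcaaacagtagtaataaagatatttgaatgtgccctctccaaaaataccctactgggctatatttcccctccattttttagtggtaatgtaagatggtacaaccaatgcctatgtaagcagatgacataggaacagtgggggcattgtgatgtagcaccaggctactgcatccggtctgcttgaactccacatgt
The Nxf2 window holds 5 CACGTG, Radx holds 1 of each motif, and the Asb9 window holds neither. Over the cancer-testis list, 2 of 13 promoters (15.4%) held each motif, against 7.09% for CACGTG and 24.5% for TCCCGC among genes tested.

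The cancer-testis genes of the X chromosome, families normally active in the germ line alone, were all on the lower side. Of 15 measured, 15 were lower, 12 in all 4 pairs (17% of all genes) and 11 at an unadjusted p under 0.05 (4.84% of all genes), and the median was -0.98. Under normexp correction, 13 of 15 lay below the median of all genes, with a median of -0.31 relative to it. Nxf2 and Nxf3, of the RNA export factor family, gave -1.39 (SE 0.16) and -1.51 (SE 0.29). Nxf2 was dim, at 5.55, 1.83 and 2.08 at day 9 and 19.3, 7.17 and 8.94 at day 12, with control and knockdown both higher at day 12. Dmrtc1b gave -1.61 and Magea3 gave -1.09, and since near-identical copies exist for both, their probes may read several genes. The Rhox homeobox cluster, also X-linked, had 7 of 7 measured members lower, with a median of -0.59. Rhox13 gave 563, 261 and 197 at day 9 and 1064, 756 and 618 at day 12, a difference of -0.98 (SE 0.22), and the knockdown values of day 12 lay above the control of day 9. Rhox4e gave -0.60, with the same caution about copies, and Rhox5 gave -0.45.

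Pluripotency genes leaned the other way. Of 24 measured genes of the naive network, 17 were higher and 7 lower, and the median was 0.18. In all 4 pairs 9 were higher and 2 lower, against 16.3% and 17% of all genes, and the unadjusted p was under 0.05 for 6 of the higher and 1 of the lower members, against 5.11% and 4.84% of all genes. Under normexp correction the list was split evenly around the median of all genes, 12 above and 12 below. Pou5f1, which encodes OCT4 and whose promoter drives the reporter of the gate, gave 1146, 1723 and 2133 at day 9 and 1211, 1825.5 and 1980.4 at day 12. All 4 knockdown arrays were above both controls, with a difference of 0.70 (SE 0.15, limma adjusted p 0.275). Tdgf1, a Nodal co-receptor, gave 1.03 (SE 0.19), and Jam2 and Tcl1 each gave 0.97. Of the 7 lower members Rif1, at -1.05 (SE 0.40), and Stat3, at -0.42, were lower in all 4 pairs, and only Rif1 had an unadjusted p under 0.05. The 7 pluripotent cell markers summed to 10259 to 11418 in the controls and to 12394 to 13975 in the knockdown arrays, and what they contribute to the other differences was not tested.
Genes of primordial germ cell specification did not lean, with 9 of 17 higher, 8 lower and a median of 0.04. Dppa3, an early germ cell and oocyte factor, gave -0.62, Prdm1 gave -0.25, and Ifitm3 and Itgb3 gave 0.50 and 0.41.

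Genes of several somatic lineages and of endoderm and yolk sac were more often higher, and those of trophectoderm were not. Plasma proteins of yolk sac and liver had 17 of 21 higher and 4 lower, with a median of 0.39, and 4 of them passed with the block: Afp, Fgb and Apoa1 higher and Ambp lower. Endoderm transcription factors had 16 of 20 higher, with a median of 0.28. Their pair medians were 0.33 and -0.13 at day 9 and 0.45 and 0.35 at day 12, so hairpin 2 at day 9 went against the others, and without it the median was 0.38. Leaving out each array in turn gave 0.11 to 0.38. Foxa2, Sox17 and Gata6 gave 0.92, 0.83 and 0.66, each higher with hairpin 1 than with hairpin 2. The endoderm markers Alb and Ttr were above background on no array, and the marker list summed to 97.6 to 106 in the controls and 178 to 262 in the knockdown.
Fibroblast and matrix genes had 21 of 27 higher, with a median of 0.34. Col3a1, a fibrillar collagen, gave 21.1, 35.2 and 55.3 at day 9 and 17.3, 39.3 and 105.3 at day 12, a difference of 1.48 (SE 0.45, limma adjusted p 0.39), highest with hairpin 2 at each day. Postn and Col1a1 gave 1.31 and 0.98. Timp3, a metalloproteinase inhibitor, went the other way at -0.99 (SE 0.16). All 10 fibroblast markers were higher in the fit, and their summed signal was 336 to 711 in the controls and 526 to 958 in the knockdown, so the groups overlapped. Neural genes had 14 of 19 higher and mesoderm genes 17 of 21. Trophectoderm genes had 6 of 15 higher and 9 lower, with a median of -0.12. In all 4 pairs 5 were lower and 1 higher, against 17% and 16.3% of all genes. At an unadjusted limma p under 0.05, 3 were lower and none higher, against 4.84% and 5.11% of all genes. The X-linked homeobox gene Esx1 gave -0.995 and Gata3 gave -0.78, and without hairpin 2 at day 9 the median of the list was 0.02. The neural markers summed to 310 to 347 in the controls and 439 to 555 in the knockdown, and blood markers to 24.8 to 25.3 and 13.1 to 17.6. Most of the neural rise came from Stmn2, at a log2 difference of 1.60, and Pax6 was lower at -0.21. The blood fall came from Gata1, at -1.17, while Tal1 and Hbb-bh1 were higher in the fit at 0.49 and 0.12. The wider blood cell list had 8 of 12 measured genes higher and 4 lower, with a median of 0.16. The part of other cell types within the gate in these differences was not tested.

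**Figure D3:**
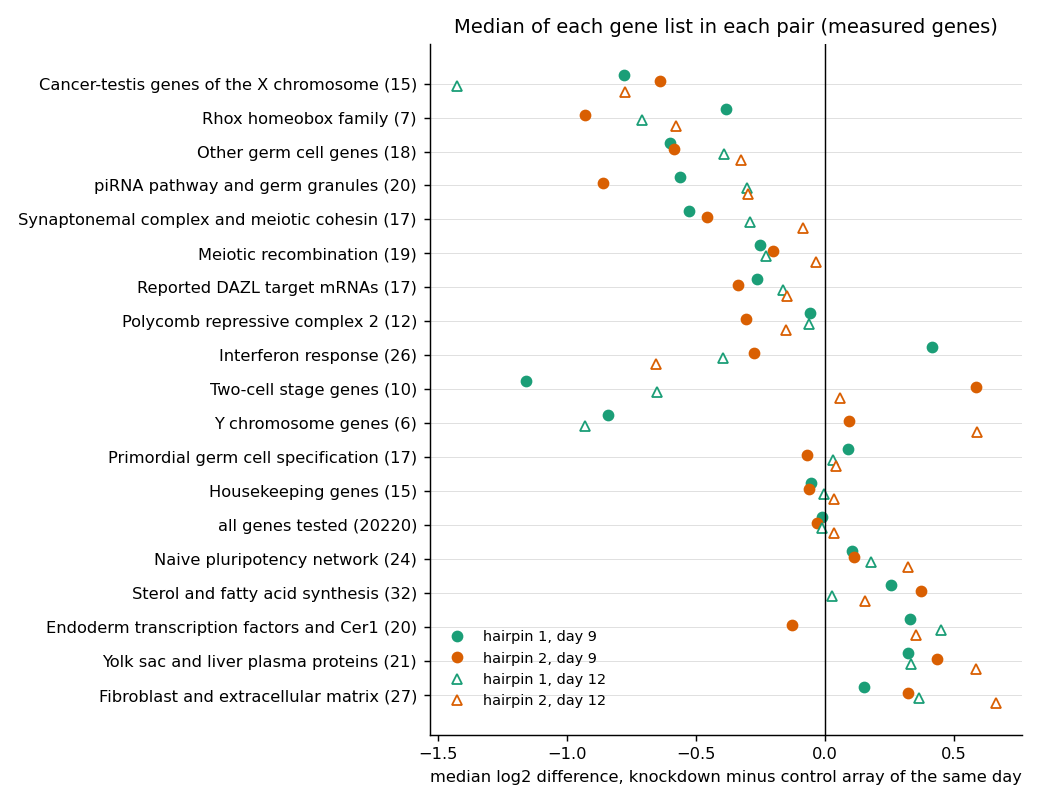
Median log2 difference, knockdown minus the same day's control, of 18 gene lists and of all genes tested in each of the 4 pairs; colours are hairpins and marker shapes are days, and the number of measured genes stands beside each list. The meiosis, piRNA and X-linked cancer-testis lists lie below 0 in every pair, down to -1.43, and plasma protein and fibroblast lists lie above 0 in every pair.

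Genes of sterol and fatty acid synthesis were higher as a group. Of 32 measured, 28 were higher, with a median of 0.27 and pair medians of 0.26 and 0.37 at day 9 and 0.03 and 0.16 at day 12, for hairpin 1 and hairpin 2. In all 4 pairs 10 were higher and 1 lower, against 16.3% and 17% of all genes. At an unadjusted limma p under 0.05, 7 were higher and none lower, against 5.11% and 4.84% of all genes. Leaving out each array in turn gave medians of 0.08 to 0.33, and under normexp 19 of 32 lay above the median of all genes. The desaturases Scd1 and Scd2 gave 0.91 and 0.78, and the cholesterol enzymes Msmo1 and Tm7sf2 gave 0.56 and 0.54. Other lists turned with a single array or split. Interferon response genes had 20 of 26 lower, with a median of -0.22, yet their median was 0.42 in the pair of hairpin 1 at day 9 and -0.28, -0.39 and -0.65 in the others. Oasl2, an antiviral gene of this list, gave 104, 151 and 66.0 at day 9 and 433, 261 and 217 at day 12, so the high value was that of the day 12 control. Without that control the list's median was 0.03, and without hairpin 2 at day 9 it was -0.05, with 11 members higher and 15 lower. Imprinted genes split 17 to 14, with H19 at -1.22 (SE 0.41) and Meg3 at 0.92 (SE 0.17). H19 gave 149, 84.9 and 148 at day 9 and 396, 90.1 and 105.3 at day 12, so that it differed mainly at day 12. Meg3 gave 2051, 3399 and 3193 at day 9 and 1389, 3300.5 and 2876 at day 12, above both controls on every knockdown array. Housekeeping genes had a median of 0.03.

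Taken pair by pair, the hairpins and days differed in how many genes stood apart. Among genes above background on both arrays of a pair, hairpin 1 at day 9 had 182 genes at least 2-fold higher (0.961%) and 252 lower (1.33%). Hairpin 2 at day 9 had 382 higher (2.01%) and 691 lower (3.63%), the most of any pair. At day 12 hairpin 1 had 329 higher (1.7%) and 286 lower (1.48%), and hairpin 2 had 287 higher (1.48%) and 153 lower (0.791%). Few differences were large: between 10 and 42 genes a pair were at least 4-fold lower, and between 13 and 24 at least 4-fold higher. These counts compare single arrays and have no replicate check.
Pairs of different days share no array, and the same hairpin can be followed across them. For hairpin 1 the log2 differences of day 9 and day 12 correlated across 18482 genes at r = 0.64 (Spearman's rho 0.58), and for hairpin 2 at r = 0.26 (rho 0.18). Across hairpins, day 9 with hairpin 1 against day 12 with hairpin 2 gave r = 0.33, and the reverse gave r = 0.15. Genes are not independent replicates, and arrays of the same vector share their slide position. Of 174 genes at least 2-fold higher with hairpin 1 at day 9, 170 (97.7%) were higher and 116 at least 2-fold higher at day 12, and of 243 lower genes 215 (88.5%) were lower and 95 at least 2-fold lower. Of all these genes 49.8% were higher and 50.2% lower with hairpin 1 at day 12. For hairpin 2, 267 of 367 higher (72.8%) and 441 of 670 lower genes (65.8%) kept their side, against 55.6% and 44.4% of all genes, and 54 and 46 did so at 2-fold.

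**Figure D4:**
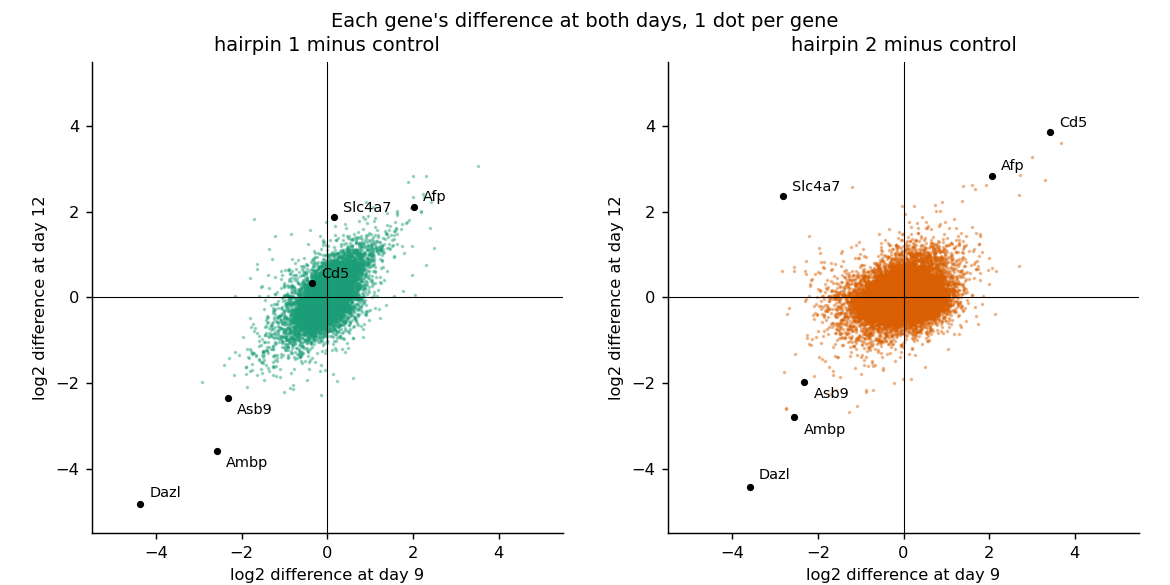
Log2 difference at day 12 against that at day 9 for hairpin 1 (left) and hairpin 2 (right), knockdown minus the same day's control, 1 point per gene for 18482 genes above background on all 6 arrays. Hairpin 1 gives a tighter diagonal (r = 0.64) than hairpin 2 (r = 0.26), and Dazl lies far down the diagonal in both.

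A few genes differed strongly between the hairpins. Gkn2, a gastrokine of stomach epithelium, gave 119 with hairpin 1 against 4.09 in the control at day 9, and 326 against 15.0 at day 12, while hairpin 2 gave 0.303 and 4.73. Aqp8, a water channel, gave 171 and 215 with hairpin 1, 6.88 and 11.05 with hairpin 2, and 14.8 and 25.6 in the controls. Cd5, a T cell surface receptor, gave 31.9 and 40.5 with hairpin 2 and 2.35 to 3.50 on the other 4 arrays. For each of these genes the hairpins lay apart at both days, and the values of the contrast between hairpins are in the closing section. In the contrast between hairpins, 14 of the 20220 genes had a limma adjusted p under 0.05.

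Whether the knockdown difference itself changed from day 9 to day 12 was tested as an interaction. No gene passed in limma (0%), and 349 had an unadjusted p under 0.05, of which 184 (0.91%) were more positive and 165 (0.816%) more negative at day 12. With the vector as a replicate block 63 passed, 35 more positive and 28 more negative at day 12, but with 1 residual degree of freedom and with 8 of the 63 above background on all 6 arrays. The germ cell lists lay nearer to 0 at day 12 than at day 9 in their medians: the median interaction was 0.36 for the synaptonemal list, 0.40 for the piRNA list, 0.12 for recombination and 0.10 for other germ cell genes, against 0.05 for all genes. Of all their members only Figla, an oocyte transcription factor at 1.41 (SE 0.49), had an unadjusted p under 0.05 for the interaction.

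By position along the genome, chromosome 1 stood lower as a whole. Its 840 genes above background on every array had a median log2 difference of -0.18, and 72.5% were lower. The medians in the pairs were -0.22 and -0.27 at day 9 and -0.14 and -0.09 at day 12, for hairpin 1 and hairpin 2, and no other autosome had a median below that of the X chromosome, -0.03. In all 4 pairs 320 of the 840 (38.1%) were lower and 60 (7.14%) higher, against 16.1% and 17.7% on chromosomes 2 to 19. The shift ran along the chromosome: 6 consecutive segments of 140 genes had medians from -0.20 to -0.15, and 67.9% to 75.7% of the genes in each were lower. Chromosome 8 had the highest median among autosomes, at 0.06. The fold at the chromosome 1 median is small beside the spread of single genes, and it was also present under normexp correction, at -0.19 relative to the median of all genes. Of the measured germ cell genes, 2 lie on chromosome 1, Tdrd5 and Mael.

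**Figure D5:**
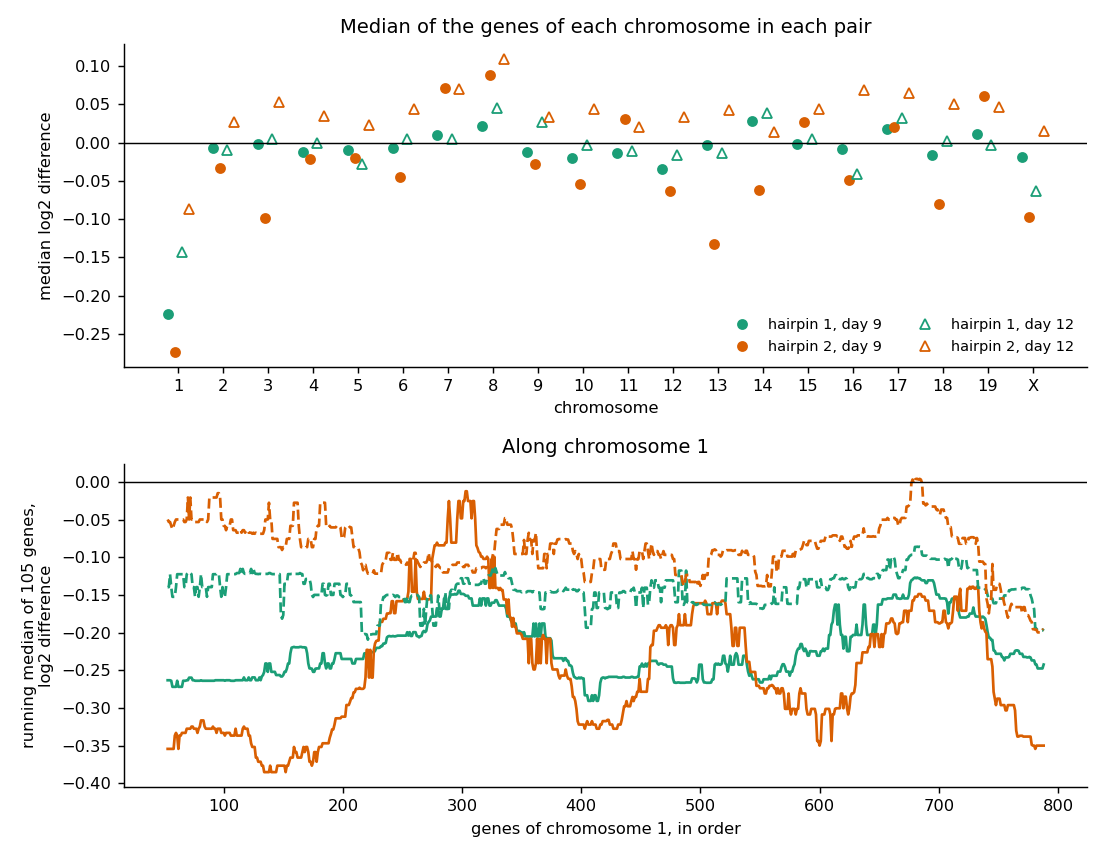
Top: median log2 difference, knockdown minus the same day's control, of the genes of each chromosome in the 4 pairs, for genes above background on all 6 arrays. Bottom: running median of 105 genes in order along chromosome 1, 1 line per pair; all 4 lines lie below 0 over most of the chromosome, and chromosome 1 has the lowest median of the autosomes in every pair.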

How the data were processed

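Each of the 6 samples had 1 array. Per the file headers, the deposited scanner files hold spot intensity values from Agilent Feature Extraction 9.1.3.1, detrended and background-subtracted, with surrogates where a spot was not above background, and with no scaling between arrays. The deposited table of the whole series holds a ratio of the background-subtracted signal to a value constant within an array, which sets column medians to 1; all 41529 entries were checked against the spots. Deposited quality score columns, whose making the sources used here do not give, were used to link entries with spots and for nothing else.

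From the log2 signals the 75th percentile of their array was subtracted. Control spots and outlier flags were left out, spots of a probe were averaged, and 30190 probes well above background on at least 2 arrays were kept. Names came from the accession for 22951 of 41174 probes and from a symbol or synonym for 9755, through a RefSeq table of GRCm38.p6, and from the array for the rest. The brightest probe stood for each of 20220 genes. Where a gene was below background on all arrays of a group, "at least" folds set the bright group's mean against the lowest signal called above background.

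Linear models came from limma 3.58.1 under R 4.3.3, two-sided, with Benjamini-Hochberg adjustment over all genes and a threshold of 0.05, after the scripts were tested on simulated data. Day was a term and is also the slide and scan, since each day's arrays shared them. The interaction assumes that a day's lone control varies like the knockdown pairs. No label names separate cultures, so p-values cover no more than the spread among these arrays. Whether vectors pair the arrays across days was checked by correlating deviations from each day's mean: arrays of the same vector gave r of 0.38, 0.54 and 0.26, and other combinations gave -0.34 to -0.02. The check cannot tell paired cultures from a knockdown difference, hairpin difference or slide position that both days share. A second fit, the replicate block, took the vector as a term and left 2 residual degrees of freedom for the knockdown contrast. Its error is the spread of vectors across days, so its p-values leave out any disagreement between the hairpins.

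Genes were named by these rules: Dazl; genes past the threshold in either fit; genes at least 2-fold apart in all 4 pairs and above background on all 6 arrays, up to 12 per direction; up to 4 members of each list with the largest difference; the 3 largest differences per direction of each pair; the 3 smallest p of the interaction; and list members with a known role. A gene that these rules select is not reported here. The comparison, the gene lists and these rules were chosen with earlier results of these data known. Alternatives were other background corrections, scalings, filters, probe rules and variance priors, the deposited table, the block and leaving out each array.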

Additional observations from a re-analysis of the deposited data

Results flagged for a closer look

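The knockdown effect of some genes differed between the hairpins, in a fit with day and vector as terms. Aqp8 was lower with hairpin 2 than with hairpin 1 by a log2 difference of -4.46 (SE 0.19, limma adjusted p 0.0108), and Gkn2 by -7.36 (SE 0.58, limma adjusted p 0.0499). Cd5 was higher with hairpin 2 by 3.65 (SE 0.21, limma adjusted p 0.036), and Pga5 by 2.36 (SE 0.17, limma adjusted p 0.0499). In each of the 4 genes the hairpins kept their order at both days. Gkn2 with hairpin 2 at day 9 was not well above background, so the size of its difference is uncertain.

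Tcstv1, a gene of the 2-cell embryo stage, and Eif2s3y, a Y-linked translation factor subunit, were below the control with hairpin 1 and above it with hairpin 2 at both days. Their differences, hairpin 2 minus hairpin 1, were 1.56 (SE 0.35, limma adjusted p 0.192) and 1.46 (SE 0.20, limma adjusted p 0.0988), so neither passed. The medians of their lists differed in the same sense, by 1.22 for 10 measured 2-cell stage genes and by 1.23 for 6 Y chromosome genes, as means over the days; these differences of medians were not tested.

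Opposite signs at the 2 days were seen for Syt6, Olfr441, Olfr649 and Bcl6b. Their interactions, day 12 minus day 9, were 2.37 (SE 1.30), 3.67 (SE 0.57), -2.13 (SE 0.31) and -1.72 (SE 0.34), each with a limma adjusted p of 0.99975. Olfr441 gave 9.35 in the day 9 control and 1.13 in the day 12 control, against 2.85 to 6.79 on the knockdown arrays, and Olfr649 gave 10.1 in the day 12 control and 2.58 to 3.14 on the other arrays. For Olfr649 the lone control of day 12 carries the change of sign, and for Olfr441 the lone controls of both days do. Syt6 gave 1.64 with hairpin 2 at day 9 and 7.77 to 13.4 on the other arrays.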

How the results depend on the processing

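With 1 control array a day the threshold is hard to reach, and dim genes move with the background correction. Dazl kept its direction under every alternative run. Its limma adjusted p was under 0.05 with normexp at -3.74 (0.0276), with the mean of its probes at -4.51 (0.00655), and at -4.30 with the filter on all 6 arrays (0.0366), a trended robust prior (0.0172) or the replicate block (0.0104); the range over all alternatives was 0.00655 to 0.730. The knockdown contrast called 2 genes with normexp, 8 with the filter on all 6 arrays, 1 with the mean of probes, 2 with the trended prior and 20 with the block. Of genes at unadjusted p under 0.05, 51.4% were higher, against 63.5% with normexp, which moved the median of all genes to 0.12. The block also gave 63 genes for the difference between days.

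Under normexp, genes 2-fold higher and lower were 63 and 47 with hairpin 1 at day 9, 205 and 250 with hairpin 2 at day 9, 128 and 52 with hairpin 1 at day 12, and 86 and 21 with hairpin 2 at day 12. In all 4 pairs they were 6 and 3. Leaving out each array, with 2-fold asked of the remaining pairs only, gave 21 to 103 higher and 20 to 70 lower. The chromosome 1 median was -0.079 with normexp. Small positive values replaced negative ones with normexp for Magea8 (0.025), Tex11 (0.037), Cyp4f15 (0.11), Dock10 (0.018), Myl10 (0.041) and Syt6 (0.12).

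Leaving out each array turned the sign of genes near 0 or carried by 1 array, with ranges of -0.73 to 0.091 for Ddx4, -0.21 to 0.020 for Sox2, -0.82 to 2.88 for Gkn2, -1.33 to 2.12 for Slc4a7, -1.67 to 0.70 for Syt6, -1.46 to 2.21 for Olfr441, -1.94 to 0.20 for Olfr649, -0.20 to 1.52 for Bcl6b, -0.92 to 0.061 for Tcstv1 and -0.45 to 0.30 for Eif2s3y. Other causes were not tested.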
